A study of Mus musculus with 29 samples.

Results

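Antibody heavy chains are encoded on mouse chromosome 12 and kappa light chains on chromosome 6. In each B cell a variable segment is joined to short joining segments, and the heavy chain then carries a constant region that sets its class (mu, delta, gamma, epsilon or alpha). Plasma cells, the secreting form of the B lineage, hold very large amounts of these transcripts, and in the uterus and other mucosal tissues antibody of the alpha class is carried across the epithelium by the polymeric immunoglobulin receptor. Array probes in a window over each of the heavy and kappa loci were followed here through early pregnancy. The uteri came from mice that had been exposed to genistein as newborns, or to vehicle. Genistein is a plant isoflavone that binds oestrogen receptors.

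Female CD-1 mice received genistein at 50 mg/kg/day (GEN) or corn oil (CON) on postnatal days 1 to 5, and whole uteri were taken on gestation day (GD) 1.5, 3.5, 4.5 or 5.5. Total RNA, 500 ng per sample, was labelled with Cy3 and hybridised to 29 single-channel Agilent arrays. The groups held 4 GEN and 3 CON arrays at GD1.5, 3 GEN and 3 CON at GD3.5, 4 GEN and 4 CON at GD4.5, and 4 GEN and 4 CON at GD5.5. The labels name no allele and no other agent, the ages of the females were not given in the sources used here, and the labels do not state that each array stands for a separate animal, so p-values measure the spread between samples.

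Probes were taken by position alone, from chr12:110781031-113737877 and chr6:68233198-70744399 of mouse build mm7 (NCBI35), together with a requirement that the scanner marked the probe well above background on at least 3 of the 29 arrays. Of 152 probes in the windows, 146 met it, of 41174 probes on the array that are not controls and 34924 that met the same requirement. The heavy locus held 79 of the 146 and the kappa locus 67. The other 6 probes were well above background on 0, 0, 0, 1, 1 and 2 arrays, and the probe just inside the limit, A_52_P478560 (Ighv8-2), on 3. The requirement reads the scanner's detection marks, so a probe seen only in the group where it is bright is included because it is bright there, and counts over the 146 are given as description. Of the 146 probes, 65 were well above background on every array, 81 on fewer, and 12 on under 10.

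Arrays of one group correlated at 0.958 to 0.995 across probes. Levels are given on the log2 scale relative to the 75th percentile of the array's own spots, so that a level of 0 is as bright as that percentile and a rise of 1 is a doubling. Scanning took place in 3 sessions over 8 slides. Slides 1 to 4 carried the 13 arrays of GD1.5 and GD3.5, with a 75th percentile of intensity of 1490 to 1840, and slides 5 to 8 the 16 arrays of GD4.5 and GD5.5, with 734 to 995. GD3.5 and GD4.5 were therefore not compared. Well above background were 71.3 to 78.1% of spots on the first set of slides and 65.5 to 80.9% on the second. The uterine identity genes had a median level of 2.34 to 3.68 on all 29 arrays, and of their 8 members only Foxa2, a factor of uterine glands, differed between exposures in the averaged comparison described below, by -1.40. Antibody levels were extreme in their group on 4 arrays, GD3.5 CON replicates 1 and 2, GD4.5 CON replicate 2 and GD4.5 GEN replicate 4. Their heavy locus medians were -4.60, -1.19, -4.01 and 0.26, and the averaged and day results are given with and without them below. GD3.5 CON held 3 arrays, with replicate 3 at -2.64, so without the 4 arrays replicate 3 alone stands for that group.

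The 15 probes at the outer, constant end of the heavy locus include probes that the files name for Ighg1, Ighm, delta and epsilon chains, and 53 heavy and 48 kappa probes carry the name of a variable segment or of an antibody chain. A further 28 carry no immunoglobulin name, and 11 of these share a stretch of at least 20 bases with a probe that has one. The windows also hold 2 probes of other genes, A_52_P227746 (Gm6105, a pseudogene in RefSeq, described as similar to a high mobility group protein) and A_52_P651784 (described as similar to an S-adenosylmethionine decarboxylase). Names came through the RefSeq table for 32 probes and otherwise from the array files. None of the kappa probes is annotated as the kappa constant region in the files. The 53 and 48 probes are called the variable part below. They were sorted by name, so they include probes named only for an antibody chain, such as A_52_P238230, whose region the files do not give. The variable part may therefore also hold constant region probes, and A_52_P238230 may be one. The exon that each probe lies in was not given in the sources used here.

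The probes were 60 bases long and overlapped in sequence. In all, 61 of the 146 shared at least 20 bases with another, in 85 pairs, and the largest linked set held 17 heavy probes, so neighbouring probes are not independent measurements. Their GC content had a median of 45%, against 40% over the array. A conserved stretch near the end of variable segments was searched as TATTACTGT on both strands. It was found in 13 heavy probes (16.5%) and 11 kappa probes (16.4%), all on the probe's own strand, against 49 of the 41022 probes outside the windows (0.119%). The start of a heavy joining segment, searched on both strands as TGGGGNCAA, occurred in 1 heavy probe (1.27%) and in 0.137% of the probes outside. The kappa form, TTCGGNGG, searched on both strands, occurred in 1 kappa probe (1.49%) and in 0.149% of the probes outside, and no 2 of the 3 motifs shared bases in a probe shown here. A probe that reaches into a joining segment matches a joined transcript over its whole length, whereas one inside a variable segment matches that segment and its close relatives.

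The sequences below belong to the probes on which the results turn, chosen from each role in the loci, with motif matches in capitals. They are printed 5′ to 3′ as the array files give them. A_51_P509679 (chr12:110781031-110781090) and A_51_P180159 (chr12:110781289-110781348) lie at the outermost constant end, A_51_P461067 (chr12:110850402-110850461) is in Ighg1 and A_52_P358360 (chr12:110940000-110940059) in Ighm. All 4 run against the numbering of the chromosome, as 78 of the 79 heavy probes do.
A_51_P509679: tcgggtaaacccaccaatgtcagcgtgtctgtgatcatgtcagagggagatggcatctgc
A_51_P180159: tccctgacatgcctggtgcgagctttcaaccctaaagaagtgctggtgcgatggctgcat
A_51_P461067: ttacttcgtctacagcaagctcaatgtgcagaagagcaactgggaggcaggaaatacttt
A_52_P358360: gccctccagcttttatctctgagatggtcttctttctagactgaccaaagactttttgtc

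The heavy locus beyond the constant end is shown by 5 probes, all against the numbering of the chromosome, of which A_51_P128248 and A_51_P346681 carry no immunoglobulin name. A_51_P272341 (Ighv1-66, chr12:113080394-113080453) and A_51_P128248 (file name AI324046, chr12:112372618-112372677) hold the conserved stretch. A_51_P203148 (chr12:113603768-113603817) is described as the heavy chain of an antibody to IL-18, and A_51_P346681 (file name AI324046, chr12:112417738-112417796) had the smallest adjusted p of the heavy probes. A_52_P463637 (chr12:110949880-110949939) holds the heavy joining motif. A_51_P346681, A_51_P128248 and A_52_P463637 were picked after their values were seen.
A_51_P272341: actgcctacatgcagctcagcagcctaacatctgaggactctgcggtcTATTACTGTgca
A_51_P128248: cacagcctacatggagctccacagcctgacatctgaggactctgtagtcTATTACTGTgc
A_51_P203148: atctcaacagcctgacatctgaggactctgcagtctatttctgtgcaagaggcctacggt
A_51_P346681: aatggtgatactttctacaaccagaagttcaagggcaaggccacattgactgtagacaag
A_52_P463637: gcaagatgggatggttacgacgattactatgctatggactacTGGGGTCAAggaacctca

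The kappa locus is shown by 5 probes, of which A_52_P600555 and A_52_P385767 carry no immunoglobulin name. A_52_P238230 (chr6:68233198-68233257) is described as the kappa light chain of the antibody Mab7, A_51_P407657 (chr6:68721138-68721197) is in Igkv19-93, and A_52_P600555 (chr6:70744350-70744399) holds the conserved stretch. A_52_P600555 also ends in TTCGG, the start of the kappa joining motif, so the search could not match that motif in full there. A_52_P385767 (chr6:69719239-69719293) had the smallest adjusted p of the kappa probes and A_52_P61243 (chr6:70722138-70740584, a span of 18447 bases between the 2 ends of the probe) holds the kappa joining motif. The last 2 were picked after their values were seen. A_52_P238230, A_52_P600555 and A_52_P61243 run with the numbering of the chromosome, the other 2 against it.
A_52_P238230: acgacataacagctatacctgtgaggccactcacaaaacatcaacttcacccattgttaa
A_51_P407657: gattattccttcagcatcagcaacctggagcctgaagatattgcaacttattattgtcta
A_52_P600555: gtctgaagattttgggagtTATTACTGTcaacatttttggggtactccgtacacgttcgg
A_52_P385767: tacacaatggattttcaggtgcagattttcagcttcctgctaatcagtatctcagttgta
A_52_P61243: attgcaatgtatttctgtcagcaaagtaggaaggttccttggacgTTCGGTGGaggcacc

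The level of the loci was summarised on each array by the median over the heavy and over the kappa probes. The heavy median averaged -2.01 ± 0.93 in GEN uteri (SD, n = 4) and -4.35 ± 0.35 in CON uteri (n = 3) at GD1.5, and the 4 GEN arrays (-3.09 to -1.20) lay above the 3 CON arrays (-4.71 to -4.00). At GD3.5 it was -1.15 ± 0.59 in GEN (n = 3, -1.53 to -0.47) and -2.81 ± 1.71 in CON (n = 3, -4.60 to -1.19), and the groups overlapped. GD4.5 gave -1.58 ± 1.25 in GEN (n = 4, -2.52 to 0.26) and -2.45 ± 1.08 in CON (n = 4, -4.01 to -1.52), also overlapping. GD5.5 gave -3.17 ± 0.51 in GEN (n = 4, -3.61 to -2.53) and -4.82 ± 0.32 in CON (n = 4, -5.11 to -4.43), with every GEN array above every CON array. The exposures thus separated on the first and the last day, while 1 of the 3 CON arrays at GD3.5 and 3 of the 4 at GD4.5 lay within the range of the GEN arrays.

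The kappa median separated the exposures on the same days. At GD1.5 it was -2.64 ± 1.08 in GEN (SD, n = 4) and -4.51 ± 0.39 in CON (n = 3), and at GD3.5 -1.50 ± 0.43 in GEN (n = 3) and -3.14 ± 1.70 in CON (n = 3). At GD4.5 it was -2.91 ± 1.40 in GEN and -3.24 ± 1.21 in CON, and at GD5.5 -3.91 ± 0.43 in GEN and -5.31 ± 0.08 in CON (n = 4 each). The GEN arrays were all above the CON arrays at GD1.5 (-4.08 to -1.51 in GEN, -4.96 to -4.23 in CON) and at GD5.5 (-4.41 to -3.41 in GEN, -5.41 to -5.22 in CON), and overlapped them on the other days. These are bulk samples, so fewer cells that hold antibody transcripts and less of the transcript per cell cannot be told apart.

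Detection followed the level. On single arrays 126 to 136 of the 146 probes were well above background in GEN and 119 to 126 in CON at GD1.5, and 137 to 140 in GEN and 117 to 140 in CON at GD3.5. At GD4.5 the ranges were 114 to 140 in GEN and 100 to 138 in CON, and at GD5.5 103 to 127 in GEN and 88 to 101 in CON. At GD5.5, 12 probes were well above background on no GEN array and 33 on no CON array.

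Genistein and corn oil were compared on each day and as an average over the 4 days that gave each day the same weight, with limma and Benjamini-Hochberg adjustment over the 34924 probes, and a probe was called at an adjusted p under 0.05. Averaged over the days, 34 of the 146 probes were called, all 34 higher in GEN, against 0.321% of all probes called higher. The median difference over the 146 was 1.53, with 140 above 0, and over all probes tested it was -0.01, with the middle 50% at -0.10 to 0.07. At an unadjusted p under 0.05, 115 of the 146 were higher in GEN (3.48% of all probes). The 34 called differences were 1.60 to 2.29, or 3.02- to 4.89-fold, and 3 of them, including the upper end, use values of a group in which no array was well above background. The heavy variable part held 20 of the calls among its 53 probes (median 1.71), the heavy constant end 3 of 15 (median 0.38), and the heavy probes without an immunoglobulin name 5 of 10 (median 1.53). Of the kappa probes, 3 of 48 of the variable part (median 1.39) and 3 of 18 without an immunoglobulin name (median 1.52) were called. Among the 65 probes well above background on all 29 arrays, with adjustment over the 24173 such probes of the array, 27 were called, 62 were above 0 and the median was 1.61. With slide as a fixed block 8 of the 34 calls were left and with the replicate block 16. Without GD1.5 2 probes were called, without GD3.5 8 and without GD5.5 6, and without the 4 arrays named above 19 (median 1.14). Leaving out single arrays gave 15 without GD1.5 CON 3, GD3.5 CON 1 or GD3.5 GEN 1, 19 without GD1.5 CON 2, GD1.5 GEN 2, GD3.5 GEN 3, GD3.5 GEN 4 or GD5.5 GEN 3, 20 without GD5.5 CON 1, GD5.5 CON 2 or GD5.5 GEN 2, 21 without GD5.5 CON 4, 22 without GD3.5 CON 3 or GD5.5 GEN 1, and 52 without GD3.5 CON 2.

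The same comparison within slides, which holds slide and scan fixed, could be made for 10 pairings of arrays. At GD1.5 the median over the 146 probes was 2.70 on slide 1 and 1.99 on slide 2, and at GD5.5 it was 1.85, 1.75 and 0.85 on slides 6, 7 and 8. At GD3.5 it was 4.03 on slide 1 and -0.26 on slide 3. On slides 5, 7 and 8, GD4.5 gave 0.51, -0.43 and -1.09. Among slides that carried both exposures of a day, the higher level in GEN thus held on each one of the first and the last day. It held on 2 of the 5 of the days between. GD1.5 GEN replicates 1 and 4 and GD5.5 CON replicate 3 had no array of the other exposure and same day on their slide. The same held for GD3.5 GEN replicate 3, GD3.5 CON replicate 3 and the low array GD4.5 CON replicate 2. All of these arrays are therefore absent from the 10 pairings.

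No probe was called on a single day. At GD1.5 the 146 probes had a median difference of 2.16 (all probes 0.01), with 144 above 0, and 0 were called, where 0.0687% of all probes were, while 92 were at an unadjusted p under 0.05 and higher in GEN (2.65% of all probes). All GEN arrays were above all CON arrays in 65 of them, against 3.57% of all probes. At GD3.5 the median was 1.71 with 135 above 0 and 0 called (0.0974% of all). Of the 146, 44 were higher in GEN at an unadjusted p under 0.05 (2.45% of all were). All GEN arrays lay above all CON arrays in 38, against 9.53% of all probes, and below in 0, against 10.2%. At GD4.5 the median was 0.45 with 112 above 0 and 0 called (0.149% of all). Of the 146, 6 were higher in GEN at an unadjusted p under 0.05 (2.32% of all were). Either way, 3384 of all 34924 probes were at that limit. All GEN arrays lay above all CON arrays in 1, against 1.16% of all probes, and below in 0, against 2.74%. Without GD3.5 CON replicate 1 the median of GD3.5 was 0.70, and without GD3.5 CON replicate 2 it was 2.50. Without GD4.5 GEN replicate 4 the median of GD4.5 was -0.23, and without GD4.5 CON replicate 2 it was -0.03. At GD5.5 the median was 1.33 with 135 above 0 and 0 called (0.0115% of all). Of the 146, 52 were higher in GEN at an unadjusted p under 0.05 (2.24% of all were). All GEN arrays lay above all CON arrays in 60, against 0.853% of all probes, and below in 0, against 0.77%.

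A_51_P509679 lies at the outermost constant end, next to A_51_P270661, which the files describe as an I alpha polypeptide. Its level at GD1.5 was 6.02, 8.17, 7.17 and 7.61 on the GEN arrays, against 5.90, 5.82 and 4.64 on the CON arrays, and at GD3.5 8.03, 7.71 and 7.74 in GEN, against 5.29, 7.81 and 6.99 in CON. The GD4.5 levels were 7.27, 7.14, 7.16 and 8.77 in GEN, against 7.36, 4.46, 7.28 and 7.63 in CON, and at GD5.5 6.10, 5.72, 6.76 and 4.64 in GEN, against 3.22, 2.41, 4.43 and 2.65 in CON. Every GEN array was above every CON array at GD1.5 and at GD5.5, with overlap on the days between. The difference was 1.79 ± 0.72 (SE) at GD1.5, 1.13 ± 0.77 at GD3.5, 0.90 ± 0.66 at GD4.5 and 2.63 ± 0.66 at GD5.5, and 1.61 ± 0.35 on average (adjusted p = 0.0224). A_51_P187645 and A_51_P180159, the neighbouring probes of the same record, had averaged differences of 1.79 ± 0.39 (adjusted p = 0.0229) and 1.86 ± 0.41 (adjusted p = 0.0240), and no other probe of the constant end was called.

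The probes named for other classes were not called. The Ighg1 probe A_51_P461067 had -0.41, -2.93, -5.85 and -4.62 on the GEN arrays and -3.09, -6.34 and -5.12 on the CON arrays at GD1.5, and -4.68, -3.86, -6.06 and -6.22 in GEN and -4.00, -6.52, -4.82 and -4.00 in CON at GD5.5, overlapping on both days. Its averaged difference was 0.99 ± 0.54 (adjusted p = 0.632), and the other Ighg1 probes gave 0.43 ± 0.24 and 0.87 ± 0.45. The Ighm probe A_52_P358360, of the class that unswitched B cells carry, had 1.21, 1.30, 1.70 and 0.83 in GEN and 0.26, 1.11, 1.31 and 0.95 in CON at GD5.5, and its averaged difference was 0.11 ± 0.19 (adjusted p = 0.986). A_51_P485421, also Ighm, gave 0.38 ± 0.23 (adjusted p = 0.725) and A_52_P571419, described as a mu heavy chain, 0.62 ± 0.27 (adjusted p = 0.443). A further probe named for Ighm, A_52_P311042, lies beyond the constant end and was not called either. Within slides its difference was -2.58 to 4.16, above 0 in 7 of 10 pairings. At GD5.5 it was well above background on no CON array, and GEN was at least 2.18-fold higher.

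The delta chain probe A_51_P266248 gave 0.17 ± 0.21. The epsilon chain probes A_52_P15658 and A_51_P140829 gave 0.01 ± 0.23 and -0.31 ± 0.27, and A_51_P270661 itself -0.09 ± 0.19 (adjusted p = 0.990). Of the constant end, then, the 3 outermost probes were called, and the Ighg1, mu, delta and epsilon probes were not. The files name no class for those 3, which lie next to A_51_P270661, and their sequences were not matched to a class here. They may be alpha chain probes, so the value of A_51_P270661 does not give the response of the alpha class. Whether the classes differed from each other in their response was not tested.

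Of the heavy probes, A_51_P346681 had the smallest adjusted p. It carries no immunoglobulin name and shares 29 bases with A_51_P328275, a probe of the variable part. Its level was -1.49, -1.36, -2.42 and -0.91 in GEN, against -3.10, -4.05 and -4.27 in CON, at GD1.5, and 0.13, 0.31 and 0.12 in GEN, against -3.88, -0.72 and -1.69 in CON, at GD3.5. The GD4.5 levels were -1.84, -1.40, -2.06 and 0.32 in GEN, against -1.09, -3.90, -1.52 and -1.84 in CON, and at GD5.5 -2.62, -2.45, -2.37 and -3.97 in GEN, against -4.71, -6.14, -4.05 and -5.21 in CON. GEN and CON did not overlap at GD1.5 or GD3.5, and at GD5.5 the lowest GEN array was just above the highest CON array. The averaged difference was 1.89 ± 0.35 (adjusted p = 0.00516). At GD4.5 alone it was 0.84 ± 0.65.

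A_51_P203148 was at -0.23, 1.75, -0.08 and 1.40 in GEN, against -0.97, -1.84 and -2.44 in CON, at GD1.5, and at -0.46, -0.53, 0.17 and -2.25 in GEN, against -3.68, -4.37, -2.17 and -3.92 in CON, at GD5.5, and its averaged difference was 2.01 ± 0.42 (adjusted p = 0.0137). GEN lay above CON on all arrays of GD1.5, and at GD5.5 the lowest GEN array lay below the highest CON array. A_51_P288295, the largest called difference of the heavy locus, gave 2.13 ± 0.45 (adjusted p = 0.0187). Ighv1-72 (A_51_P230716) gave 1.95 ± 0.42 (adjusted p = 0.0193) and Ighv1-66 (A_51_P272341) 1.95 ± 0.43 (adjusted p = 0.0229). A second probe of Ighv1-72, A_52_P90157, was well above background on 22 arrays and gave 1.65 ± 0.62 (adjusted p = 0.315). The probe with the heavy joining motif, A_52_P463637, gave 1.81 ± 0.42 (adjusted p = 0.0325).

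The 17 heavy probes linked by shared stretches had averaged differences of 0.93 to 2.13, and 13 of them were called. Over all linked sets, 25 of the 34 calls come from probes that share at least 20 bases with another, and 9 do not. At the low end, Ighv1-64 (A_51_P513770), on 19 arrays above background, gave -0.12 ± 0.53, and A_52_P132574, with no immunoglobulin name and on 9 arrays, -0.24 ± 0.30. The other genes in the windows gave -0.03 ± 0.13 (A_52_P227746) and 0.05 ± 0.10 (A_52_P651784).

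A_52_P238230, the first probe of the kappa window, was at 3.30, 6.15, 4.35 and 5.05 in GEN, against 2.85, 2.75 and 1.62 in CON, at GD1.5, and at 6.24, 5.48 and 5.46 in GEN, against 2.18, 5.57 and 4.24 in CON, at GD3.5. On GD4.5 it was at 4.61, 3.87, 4.05 and 6.53 in GEN, against 4.05, 1.18, 4.29 and 4.41 in CON, and at GD5.5 at 2.88, 2.44, 3.73 and 1.16 in GEN, against -0.06, -0.95, 1.09 and -0.64 in CON. GEN was above CON on all arrays at GD1.5 and GD5.5, with the nearest arrays of GD5.5 almost level. The averaged difference was 2.00 ± 0.42 (adjusted p = 0.0163).

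A_52_P385767 was at -1.48, -1.35, -2.53 and -2.76 in GEN, against -4.60, -4.16 and -4.26 in CON, at GD1.5, and at 0.04, -0.81 and -0.64 in GEN, against -4.23, -1.99 and -3.29 in CON, at GD3.5, with no overlap on either day. At GD4.5 it was at -3.53, -4.56, -4.34 and -1.16 in GEN, against -3.69, -5.84, -2.53 and -2.36 in CON, which overlapped. At GD5.5 it was at -4.55, -4.72, -4.09 and -5.00 in GEN and was not well above background on any CON array (measured at -7.03, -6.80, -7.37 and -6.93), so the difference is a bound, at least 2.27-fold higher in GEN. For such a bound, each CON array is given the dimmest signal that the scanner still marked well above background there, or the probe's own where that is higher. The averaged difference was 1.92 ± 0.35 (adjusted p = 0.00530), and it uses those measured CON values.

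Igkv19-93 (A_51_P407657) gave an averaged difference of 2.29 ± 0.55 (adjusted p = 0.0459), which also uses CON values that were not well above background. It was at -4.35, -5.13, -3.37 and -5.10 in GEN at GD5.5, against -8.00, -7.10, -6.36 and -7.65 in CON, which was at least 2.43-fold higher in GEN since no CON array was well above background. At GD4.5 it was at -3.45, -6.24, -5.92 and -1.31 in GEN, against -3.07, -6.49, -4.01 and -2.22 in CON, and the difference was -0.28 ± 1.04. A_52_P600555, likewise above background on no GD5.5 CON array, gave 2.07 ± 0.43 (adjusted p = 0.0152) and the probe with the kappa joining motif, A_52_P61243, 1.22 ± 0.39 (adjusted p = 0.197). The 2 probes named Igk-V1 had larger errors, A_52_P957659 with 2.35 ± 0.67 (adjusted p = 0.117) and A_52_P125897 with 2.19 ± 0.60 (adjusted p = 0.0940), and the first was well above background on no GD5.5 CON array.

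At GD5.5, 23 of the 146 probes were well above background in GEN and on no CON array. For 18 of these GEN was at least 1.06- to 3.18-fold higher, and the other 5 have no bound above 1. The reverse held for 2 probes, and 10 were well above background in neither group. At GD1.5, 11 probes were well above background in GEN and on no CON array, of which 5 were at least 1.30- to 3.32-fold higher in GEN and 6 have no bound above 1.

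The step from GD4.5 to GD5.5 was compared within each exposure. In CON, 77 of the 146 probes fell and 1 rose (12.4% of all probes fell, and 26.3% changed either way), and the median difference was -2.30 (all probes 0.02). All GD5.5 CON arrays lay below all GD4.5 CON arrays in 61 probes, against 11.4% of all probes. In GEN, 8 fell and 1 rose (7.09% of all probes fell, and 17.6% changed either way), with a median of -1.32 (all probes 0.09). All GD5.5 GEN arrays lay below all GD4.5 GEN arrays in 21 probes, against 5.37% of all probes. The heavy locus had a median of -1.58 in GEN and -2.62 in CON, and the kappa locus -1.12 in GEN and -1.85 in CON. By part of the locus, the heavy variable part had 39 of 53 probes fall in CON (median -2.79) and the kappa variable part 19 of 48 (median -1.91), while in GEN 5 of 53 (median -1.69) and 1 of 48 (median -1.15) fell. Among the 65 probes well above background on all arrays, with adjustment over such probes, 47 were called in CON (median -2.62) and 7 in GEN (median -1.47).

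The test of the difference between the exposures in this step, GEN minus CON at GD5.5 against GEN minus CON at GD4.5, called 0 of the 146 probes and 0.00286% of all probes with limma, and 3 of the 146 were at an unadjusted p under 0.05 (7.48% of all). Its median over the 146 was 0.85. The larger number of calls in CON is therefore not shown to be a different response.

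A_51_P509679 was 3.51 ± 0.66 (SE) lower on the log2 scale at GD5.5 than at GD4.5 in CON (adjusted p = 0.000525), which is 11.4-fold, and its change in GEN was -1.78 ± 0.66 (adjusted p = 0.0656). A_51_P180159 gave -3.74 ± 0.77 in CON (adjusted p = 0.00112) and -1.97 ± 0.77 in GEN (adjusted p = 0.0784). A_52_P238230 gave -3.62 ± 0.80 in CON (adjusted p = 0.00181) and -2.21 ± 0.80 in GEN (adjusted p = 0.0564). The heavy variable probes A_52_P377838 and A_52_P259779 were well above background on no GD5.5 CON array, and GD5.5 was at least 6.06-fold (adjusted p = 0.00441) and 4.67-fold (adjusted p = 0.00629) lower there.

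The probes named for Ighm, unlike in the exposure comparison, were called here, in CON only. Of the 15 probes of the constant end, 5 were called lower in CON and 0 in GEN. A_52_P358360 gave -1.09 ± 0.35 in CON (adjusted p = 0.0236) and -0.32 ± 0.35 in GEN (adjusted p = 0.565), and A_51_P485421 -1.20 ± 0.44 in CON (adjusted p = 0.0470). A_52_P311042 was well above background on no GD5.5 CON array, and GD5.5 was at least 4.95-fold lower there (adjusted p = 0.0479). The Ighg1 probe A_51_P461067 gave 0.08 ± 1.01 in CON and -2.09 ± 1.01 in GEN (adjusted p = 0.154).

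The 8 probes that fell in GEN were heavy variable probes A_52_P377838, A_52_P15966, A_51_P328275, A_52_P151887 and A_51_P442889 and kappa probes A_52_P186262, A_51_P343336 and A_52_P600555, by -2.80 to -1.96. A_51_P328275, for example, gave -2.67 ± 0.71 in GEN (adjusted p = 0.0132) and -2.08 ± 0.71 in CON (adjusted p = 0.0324). The probe that rose in both exposures was no antibody gene but A_52_P227746 (Gm6105). It was at 2.63, 2.44, 2.17 and 2.60 at GD5.5 against 1.77, 1.93, 1.44 and 0.38 at GD4.5 in GEN, and at 2.59, 2.51, 2.41 and 2.33 against 1.16, 1.84, 1.02 and 1.63 in CON. All GD5.5 arrays lay above all GD4.5 arrays in both exposures, by 1.08 ± 0.24 in GEN (adjusted p = 0.00467) and 1.04 ± 0.24 in CON (adjusted p = 0.00264).

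In 29 probes GD4.5 CON arrays were well above background and no GD5.5 CON array was. For 20 of them GD5.5 was at least 1.15- to 6.06-fold lower, and 9 have no bound above 1. A_52_P385767 was one of them, at least 4.48-fold lower (adjusted p = 0.000639). Without single GD4.5 CON arrays the calls in CON numbered 48 (replicate 1), 45 (replicate 3) and 49 (replicate 4), and without replicate 2, the low array, 88. In GEN, where 9 were called with all arrays, they numbered 1 without GD4.5 GEN replicate 4 or GD5.5 GEN replicate 4, 2 without GD5.5 GEN replicate 1, 14 and 15 without GD4.5 GEN replicates 1 and 2, 17 without GD5.5 GEN replicate 3 and 18 without GD4.5 CON replicate 2. With slide as a fixed block 0 were called in GEN.

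Between GD1.5 and GD3.5 the median difference was 1.00 in GEN and 1.58 in CON. In GEN 1 probe was called, where 3.68% of all probes were, and in CON 0 were, where 1.79% of all were, with 24 higher at an unadjusted p under 0.05 (6.75% of all). The called probe, A_52_P422275, is a kappa probe with no immunoglobulin name that was well above background on 8 arrays, among them 1 of the 4 GD1.5 GEN arrays. It was at -3.05, -2.87 and -2.78 at GD3.5 in GEN, against -7.85, -7.43, -4.07 and -7.11 at GD1.5 in GEN, a difference of 3.72 ± 0.93 (adjusted p = 0.0254). Without GD1.5 GEN replicate 1, GD3.5 GEN replicate 1 or GD3.5 GEN replicate 3 no probe was called, and without GD1.5 GEN replicate 4, GD3.5 CON replicate 3 or GD4.5 GEN replicate 4 2 were. The test of the difference between the exposures called 0 of the 146 probes and 0 of all probes with limma, and 0 of the 146 were at an unadjusted p under 0.05 (780, or 2.23%, of all probes were).

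Some probes were far higher on a single array than on the others. A_52_P528041, a heavy probe described for the variable region of an antibody to c-erbB-2, was at 5.17 on GD1.5 GEN replicate 2, against a median of -1.46 on the other arrays, and at -2.80, 1.20 and 0.02 on the other GD1.5 GEN arrays. On the same array Ighv5-12-4 (A_52_P426100) was 5.89, A_51_P391836 5.87 and the kappa probe A_51_P435671 5.90 above their medians over the other arrays. The loci as a whole were high on that array, and with each array's median over the variable part of the locus subtracted the excess was 4.76 for A_52_P528041, 3.85 for A_52_P426100, 3.77 for A_51_P391836 and 3.89 for A_51_P435671. All 4 probes had averaged differences whose adjusted p missed the threshold, at 0.229, 0.132, 0.143 and 0.141. In the other direction, A_52_P957659 (Igk-V1), with a median of -2.57 over the other arrays, was not well above background on GD5.5 CON replicate 2.

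Genes outside the loci were read from lists for the B lineage and for the other cells a uterus can hold. Jchain, which encodes the joining chain of secreted alpha and mu antibody, was at 2.09, 5.32, 3.26 and 4.16 in GEN, against 1.87, 1.57 and 0.40 in CON, at GD1.5, and at 5.14, 4.34 and 4.32 in GEN, against 1.03, 4.78 and 3.07 in CON, at GD3.5. At GD4.5 it was at 3.35, 2.75, 3.31 and 5.52 in GEN, against 2.64, -0.32, 2.61 and 2.87 in CON, and at GD5.5 at 1.70, 1.02, 2.34 and -0.14 in GEN, against -1.13, -2.35, -0.12 and -1.93 in CON. GEN lay above CON on all arrays of GD1.5, and at GD5.5 one GEN and one CON array met at about the same level. The averaged difference was 2.12 ± 0.44 (adjusted p = 0.0156). From GD4.5 to GD5.5 Jchain fell by 2.51 ± 0.84 in GEN (adjusted p = 0.0411) and by 3.33 ± 0.84 in CON (adjusted p = 0.00498).

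Jchain was the only called gene of the 14 plasma cell genes in the averaged comparison, in which 9 were above 0 and the median was 0.28. Pou2af1, a B cell co-activator, gave 1.35 ± 0.37 (adjusted p = 0.0951), Mzb1, an endoplasmic reticulum protein of antibody secretion, 1.04 ± 0.43 (adjusted p = 0.397), and Tnfrsf17, a survival receptor of plasma cells, 1.00 ± 0.39 (adjusted p = 0.353). The transcription factors Xbp1 and Prdm1, which uterine cells other than plasma cells also express, gave -0.10 (adjusted p = 0.90) and -0.26 (adjusted p = 0.52). Of the 18 B cell genes 15 were above 0, with a median of 0.21, and 0 were called. Of the other light chain, lambda, and the surrogate light chain, 4 of 9 listed genes passed the detection limit, and Iglv1 gave 1.85 ± 0.62 (adjusted p = 0.230). Pigr, the receptor that carries alpha antibody across epithelium, gave -1.18 ± 0.38 (adjusted p = 0.199), the opposite sign to the antibody probes.

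Marker genes of other cells were compared on the days when the exposures separated. At GD1.5 all 8 adipocyte genes were higher in GEN with a median difference of 2.41, and all 9 neutrophil genes with 2.06. So were 16 of 18 B cell genes with 0.80, 11 of 13 T cell genes with 0.50 and 10 of 11 macrophage and dendritic cell genes with 0.36. Of the plasma cell genes 8 of 14 were higher, with a median of 0.41. No gene of these lists was called at GD1.5. The median level of the adipocyte genes at GD1.5 ranged from -3.18 to 1.67 in GEN and from -4.68 to -1.04 in CON, and that of the neutrophil genes from -0.53 to 0.52 in GEN and from -3.28 to -0.46 in CON. At GD5.5 8 of 9 neutrophil genes were above 0 with a median of 0.61 and levels of -3.13 to -0.86 in GEN and -4.56 to -3.86 in CON, 0 of 8 adipocyte genes were above 0 with a median of -0.37, and 10 of 14 plasma cell genes were above 0 with a median of 0.41. All 11 macrophage and dendritic cell genes were above 0 at GD5.5 with a median of 0.40, and their median level ranged from -0.42 to 0.39 in GEN and from -0.54 to 0.17 in CON. B cell genes were above 0 in 10 of 18 (median 0.09) and T cell genes in 8 of 13 (median 0.06). None of these genes was called at GD5.5. The part of these cells in the antibody result was not tested.

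In the averaged comparison none of the genes of the lists for T cells (9 of 13 above 0, median 0.04), lymph node stroma (7 of 7 tested, 0.18), neutrophils (8 of 9, 0.73), macrophages and dendritic cells (8 of 11, 0.07), adipocytes (7 of 8, 0.27), simple epithelium (1 of 9, -0.12), antibody transport and Fc receptors (5 of 10, -0.02), plasma cell homing and survival (12 of 15, 0.16) or joining and class switching (6 of 10, 0.01) was called. Between GD4.5 and GD5.5 in CON, 9 of the 11 macrophage genes and 8 of the 18 B cell genes fell, as did 4 of the 14 plasma cell genes while Derl3 rose by 2.49. In the same step 5 of the 9 genes of simple epithelium fell (median -1.07, none above 0), as did 4 of the 10 genes of antibody transport and Fc receptors, 4 of the 15 of plasma cell homing and survival, 2 of the 9 neutrophil genes, 2 of the 8 uterine identity genes and 1 of the 13 T cell genes, where 12.4% of all probes fell. Rises were called for 2 uterine identity genes, 1 T cell gene and 1 gene of joining and class switching, where 4855 of all 34924 probes rose. The part of these cells in the fall of the antibody probes was not tested.

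The genes outside the windows whose level over the 29 arrays was most like the mean of the 146 probes, by Pearson correlation given as a description, were Ighv1-62-1 (0.963), which the array design left unplaced, Iglv1 (0.954), Jchain (0.927), Igkv2-116 (0.916), D6Ertd456e (0.913), Ighg (0.907), Mzb1 (0.897) and Igkv1-133 (0.889). Igkv2-116 and Igkv1-133 are kappa variable genes of chromosome 6 and Ighg is a heavy chain gene, so the windows do not hold every antibody probe of the array. The points share arrays and scaling.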

How the data were processed

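The deposited scanner files hold, per the file headers, the processed intensity of each spot from Agilent Feature Extraction 9.5.3.1, background-subtracted and detrended within each array, with the raw mean and local background intensity beside it. The submitters' processing notes name version 9.5. The authors' table for the whole series repeats these deposited intensities (largest difference 0%) and was not used further.

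Each array's 75th percentile of non-control spots was subtracted on the log2 scale, 34 to 149 spots per array with the scanner's outlier marks were set to missing, and spots of a probe were averaged. Group means of all 29 arrays were fitted with limma 3.58.1 in R 4.3.3 (lmFit, eBayes), with Benjamini-Hochberg adjustment over 34924 probes well above background on at least 3 arrays, in 11 comparisons. The fit was tested on simulated data. Tables used Python 3.11.15, pandas 2.3.3 and numpy 2.4.6. The number of arrays limits the precision.

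Groups and replicate numbers came from the sample titles. Named were called probes (up to 8 each way per comparison), constant region probes, probes of other genes, the 3 with the highest, lowest, largest or smallest values of each kind, up to 5 genes of each marker list and the 8 named genes most like the mean of the probes. Probes that fall outside this are said to be picked after their values were seen. Probes, lists and tests were chosen with earlier results of these data known.

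Same-numbered GEN and CON samples deviated together in all 4 pairs of GD5.5 (correlations 0.28, 0.36, 0.18 and 0.50) and not consistently on the other days. A fit of GD5.5 with the replicate block called 0 probes of the loci and 0 of all probes. Some of these pairs also share a slide.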

Additional observations from a re-analysis of the deposited data

Results flagged for a closer look

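Of 60 groups of 4 arrays examined, over 12 series of values (locus medians, named probes and Jchain), 9 held an array whose gap to the nearest other array, as a share of the group's range, passed Dixon's 95% limit. Chance gives about 1 such group in 20.

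Of these, 8 came from arrays GD4.5 CON replicate 2 and GD4.5 GEN replicate 4. GD4.5 GEN replicate 4 had a kappa median of -0.82, with the other GEN arrays at -3.73 to -3.39. It had A_51_P509679 at 8.77 (others 7.14 to 7.27) and A_51_P180159 at 8.40 (others 6.24 to 6.27). GD4.5 CON replicate 2 was low, with A_51_P509679 at 4.46 (others 7.28 to 7.63), A_51_P180159 at 3.48 (6.38 to 6.73), A_51_P203148 at -1.82 (0.67 to 1.15), A_52_P238230 at 1.18 (4.05 to 4.41) and Jchain at -0.32 (2.61 to 2.87). On GD5.5 GEN replicate 4, A_51_P346681 was at -3.97, with the other GEN arrays at -2.62 to -2.37.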

How the results depend on the processing

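The 34 averaged calls were all above 0 under every alternative in which they were tested. They were picked as higher on these same arrays, so that sign says little. The count of calls was 26 with quantile normalization, 23 with normexp on the local background, 39 with slide as a random block and 44 with array weights. It moved to 8 with slide as a fixed block, 16 with the replicate block, 2, 8 and 6 as averages without GD1.5, GD3.5 and GD5.5, 19 without 4 arrays that stand apart, and 15 to 52 when single arrays were left out. At GD3.5, where 0 were called, array weights called 11 and normexp on the array's median background 4, and at GD5.5 normexp on the local background called 91. From GD4.5 to GD5.5 the 78 calls in CON became 27 with normexp on the local and 30 on the median background, 47 of 65 for probes above background on all arrays, and 45 to 88 without single arrays. The 9 calls in GEN became 44 with normexp on the local background (31 of them higher at GD5.5), 0 and 5 with slide as a fixed and a random block, 2 with array weights, 2 with the arrays of those days, and 1 to 18 without single arrays. The test of the difference between exposures in that step went to 18 calls with normexp on the local background. From GD1.5 to GD3.5 in CON the arrays of those days gave 1 call, and single arrays left out 0 to 1. In GEN the 1 call became 0 with quantile normalization, with probes above background on all arrays and with the arrays of those days, 2 with the replicate block, 7 with normexp on the median background, 32 with array weights and 0 to 2 without single arrays. Leaving out single arrays gave 0 to 1 calls at GD1.5 (1 without GD1.5 GEN replicate 1) and at GD5.5 (1 without GD5.5 GEN replicate 4), and 0 at GD3.5, at GD4.5 and in both tests of a difference between exposures. A_52_P15966, at -2.70 from GD4.5 to GD5.5 in GEN, was at 0.085 with normexp on the local background. Over the 66 called results for single probes, the alternatives kept the call 854 times, lost it 187 times and reversed it 1 time, and with single arrays left out it was kept 1648 times and lost 266 times.

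Normexp on the local background raised the low end of 6 arrays (10th percentile 87.5 to 543, against 61.3 to 69.9 on the others), and called 20342 of all 34924 probes at GD5.5, so its counts say little about the loci. The fit on each array's median background, the omission of days, of the 4 arrays and the GD5.5 block were chosen after seeing the data. For the other moved counts the cause was not tested. Signal limits the lowest group: of the 146 probes, 33 were not well above background on any GD5.5 CON array, so their fold differences there are bounds at most.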
